A study of Homo sapiens with 6 samples.

Results

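The kinase branch below mTORC2 was followed through 9 genes in HCC2814 cells with a control guide or a guide against MLST8. They were the AKT kinases AKT1 and AKT2, the serum- and glucocorticoid-induced kinases SGK1 and SGK3, the protein kinases C PRKCA, PRKCD and PRKCE, and the phosphatases PHLPP1 and PHLPP2. They were chosen by name, with earlier results of these data known, and were matched by gene symbol in the expression table. The choice covered kinases of the AGC family that mTORC2 phosphorylates and the phosphatases that remove phosphate from them. All 9 of the 9 genes were among the 17448 genes listed, and all 9 passed the filter on low counts that left 12951 genes for testing. HCC2814 is a human lung squamous cell carcinoma (LUSC) line. WT cells carried a non-targeting control guide (sgCtrl) and MLST8-KO cells a guide against MLST8, in both cases delivered with lentiCRISPR v2 and followed by antibiotic selection. Each group had 3 replicates from independent experiments. Both groups were grown in DMEM with serum, and no drug or starvation distinguished them in the labels. A selected culture can hold cells with different edits or with none, and which guide each replicate carried is not given in the sources used here.

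mTORC2 is the mTOR complex that contains RICTOR, SIN1 (MAPKAP1) and MLST8. It phosphorylates the hydrophobic or turn motif near the carboxyl terminus of AGC kinases, while PDK1 (PDPK1) phosphorylates their activation loop. For AKT this completes activation, for SGK kinases it is needed for activity, and for conventional PKC kinases it also protects the protein from degradation. The PHLPP phosphatases remove the hydrophobic-motif phosphate. RNA-seq reads the amount of message only, so the values below say nothing about phosphorylation, protein or kinase activity.

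Estimated counts summed to between 14381673 and 15744154 per sample, and polyA-selected RNA was sequenced on the DNBSEQ platform. Levels are given as CPM, estimated counts scaled by library size and TMM, and as mean ± SD over 3 replicates. Single values are listed in the order of replicates 1, 2 and 3. Changes are log2 fold changes of MLST8-KO against WT from edgeR's quasi-likelihood test, and a gene was called when its Benjamini-Hochberg adjusted p over the 12951 genes was under 0.05. The targeted gene MLST8 stood at 57.97, 56.9 and 60.7 CPM in WT cells and at 25.5, 38.9 and 25.7 CPM in MLST8-KO cells. MLST8 fell by 0.96 on the log2 scale (standard error 0.15, adjusted p = 0.00339, edgeR), with no overlap between the groups. Squamous epithelial markers were abundant in every library, and 7 of 8 were called higher in MLST8-KO cells, with a summed level of 13848 to 20794 CPM in WT and 23850 to 26741 CPM in MLST8-KO cells. Hepatocyte markers summed to 234 CPM in MLST8-KO replicate 1, to at most 4.08 CPM in the other MLST8-KO replicates and to at most 6.50 CPM in WT cells. The leukocyte marker PTPRC had at most 1 count in any library. Summed leukocyte markers (3 of 5 analysed here, CD68 giving most of the counts) ranged from 53.5 to 78.3 CPM in WT and from 40.6 to 55.2 CPM in MLST8-KO cells. Fibroblast markers, mostly COL1A1, summed to 31.5 to 33.8 CPM in WT and 32.9 to 36.8 CPM in MLST8-KO cells. Alveolar markers (3 of 4 analysed here), nearly all NKX2-1, summed to 1.80 to 4.05 CPM in WT and 8.90 to 10.7 CPM in MLST8-KO cells. The part of these markers in the results was not tested.

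Of the 9 genes, 4 (AKT1, SGK3, PRKCD and PHLPP1) were called higher in MLST8-KO cells, and 0 were called lower. Over all genes tested, 16.3% were called higher and 15.7% lower, 32.0% in either direction. The called genes therefore held 1 AKT, 1 SGK, 1 PKC and 1 PHLPP gene, and the rest of each family was not called. In bulk RNA, a change in the number of cells that carry a message and a change in its amount per cell cannot be told apart. The median log2 fold change of the 9 genes was 0.28, against 0.0045 over all genes tested. In 5 genes every MLST8-KO replicate lay above every WT replicate, and in 1 gene, PRKCA, every MLST8-KO replicate lay below. For all genes tested, these shares were 24.8% above and 24.2% below, 49.1% together. The rise of SGK3 was matched by a fall of an overlapping gene model, described with SGK3.

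**Figure D1:**
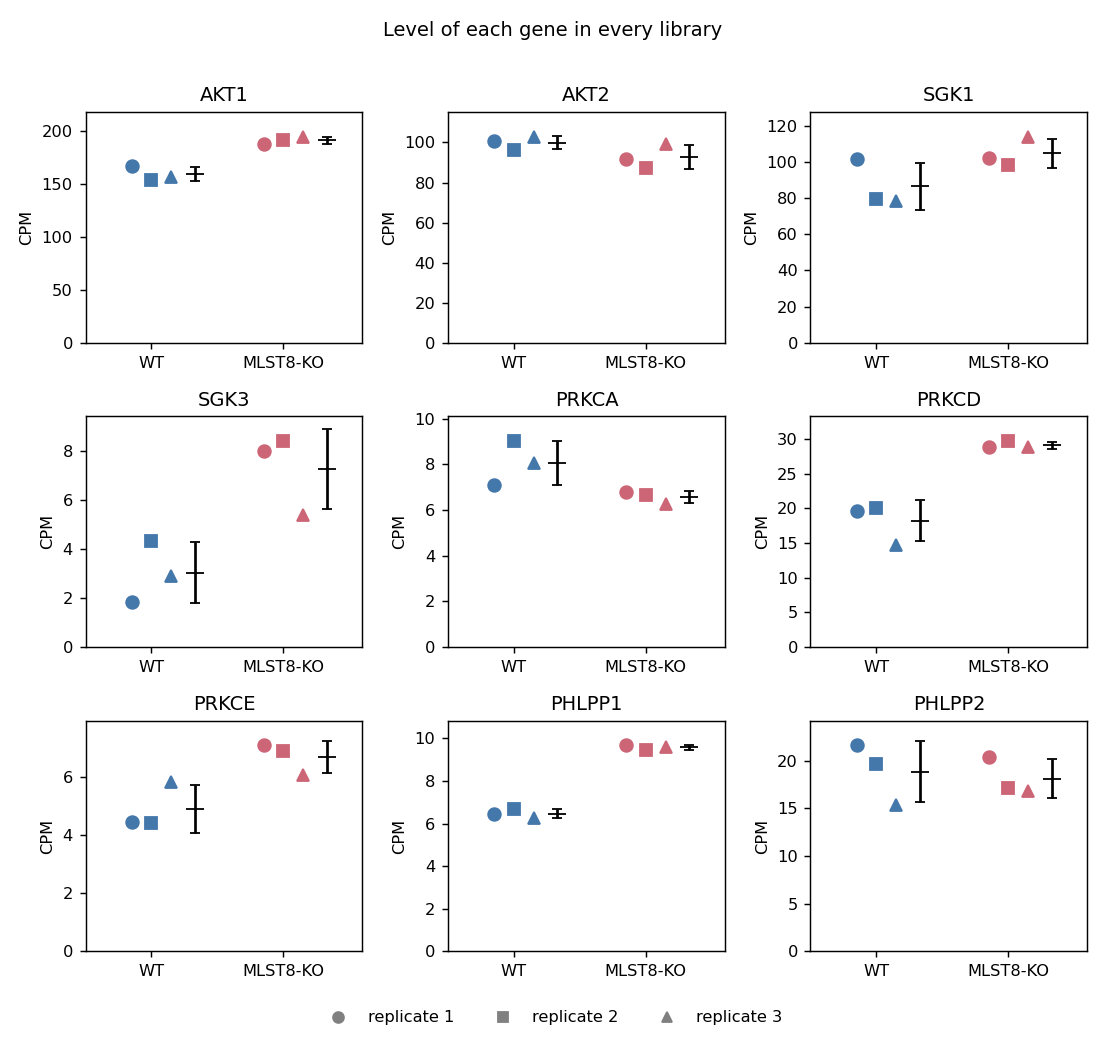
Level of each of the 9 genes in CPM in the 3 WT (blue) and 3 MLST8-KO (red) replicates; symbols give the replicate, and the black bar and whiskers the mean ± SD. MLST8-KO replicates lie above all WT replicates for AKT1, SGK3, PRKCD, PRKCE and PHLPP1, and below them for PRKCA, while the groups overlap for AKT2, SGK1 and PHLPP2.

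**Figure D2:**
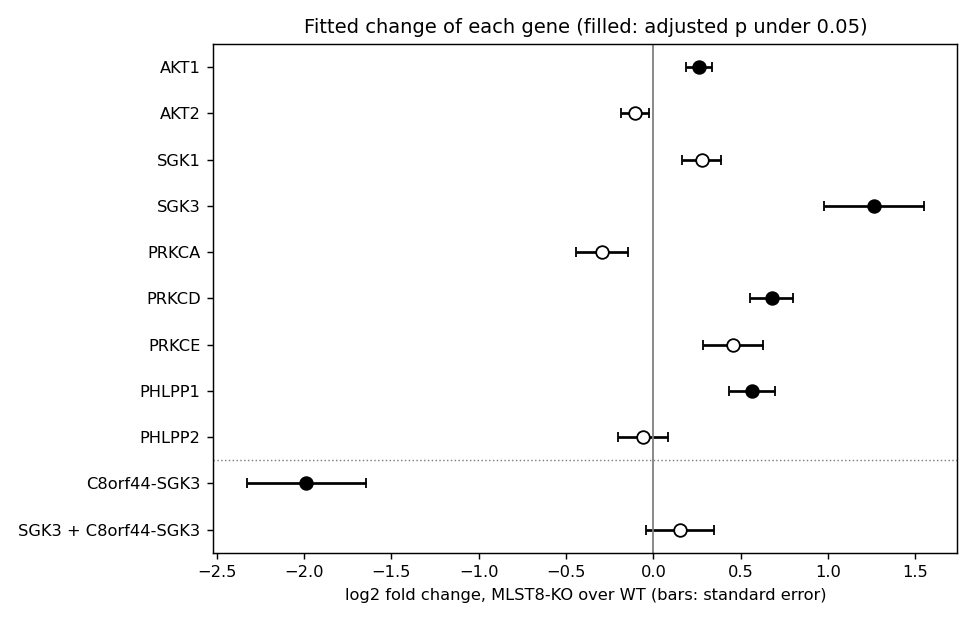
Log2 fold change of MLST8-KO against WT for each of the 9 genes with its standard error, from edgeR's fit across 12951 genes (12950 for the sum). Below the dotted line are the read-through gene C8orf44-SGK3 and its sum with SGK3, and filled points passed the threshold. Among the 9 genes the values run from -0.29 for PRKCA to 1.26 for SGK3, while C8orf44-SGK3 lies at -1.99 and the sum at 0.15.

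The AKT and PHLPP pairs each held 1 called gene and 1 that was not, and the sequence around the start of each is shown so that the paralogs can be set side by side. RefSeq promoters (GRCh38.p14), 250 bases before and 50 bases after the first annotated start, were found for 8 of the 9 genes. AKT1 is at chr14:104795699-104795998 on the minus strand, AKT2 at chr19:40285296-40285595 on the minus strand, PHLPP1 at chr18:62715291-62715590 on the plus strand and PHLPP2 at chr16:71724652-71724951 on the minus strand. Capitals mark the GC box, GGGCGG on either strand, overlapping matches included.
AKT1: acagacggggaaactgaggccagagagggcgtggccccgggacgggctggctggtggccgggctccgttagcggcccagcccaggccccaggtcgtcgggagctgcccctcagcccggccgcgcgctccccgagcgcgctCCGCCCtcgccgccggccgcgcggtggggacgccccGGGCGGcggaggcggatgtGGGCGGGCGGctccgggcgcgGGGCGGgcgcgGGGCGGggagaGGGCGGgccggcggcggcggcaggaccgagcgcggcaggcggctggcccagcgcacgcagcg
AKT2: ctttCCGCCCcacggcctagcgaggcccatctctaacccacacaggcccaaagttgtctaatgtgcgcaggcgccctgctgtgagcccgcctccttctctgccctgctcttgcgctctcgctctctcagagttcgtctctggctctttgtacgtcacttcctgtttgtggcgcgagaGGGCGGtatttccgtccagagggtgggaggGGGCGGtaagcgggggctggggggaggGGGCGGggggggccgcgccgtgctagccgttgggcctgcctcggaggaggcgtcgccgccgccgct
PHLPP1: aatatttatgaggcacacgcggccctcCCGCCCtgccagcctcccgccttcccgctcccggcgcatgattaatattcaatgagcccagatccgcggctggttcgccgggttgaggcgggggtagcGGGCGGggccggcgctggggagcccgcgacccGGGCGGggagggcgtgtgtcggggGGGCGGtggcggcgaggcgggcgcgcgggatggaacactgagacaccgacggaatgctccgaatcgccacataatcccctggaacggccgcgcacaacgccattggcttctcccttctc
PHLPP2: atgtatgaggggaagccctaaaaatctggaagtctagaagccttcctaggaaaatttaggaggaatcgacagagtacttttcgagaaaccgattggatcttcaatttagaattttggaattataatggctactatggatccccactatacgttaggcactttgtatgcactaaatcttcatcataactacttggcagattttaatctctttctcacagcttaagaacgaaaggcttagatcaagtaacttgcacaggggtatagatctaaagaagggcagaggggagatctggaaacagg
The GC box occurred 7 times in the AKT1 window, 4 times in that of AKT2, 4 times in that of PHLPP1 and 0 times in that of PHLPP2, and 45.0% of 35116 RefSeq promoters of the same length held at least 1. The GC content was 83.3%, 68.0%, 69.3% and 39.7% in the same order, against a median of 58.7% over all promoters. These values are for the first start only. At the second annotated start of AKT1 and of AKT2 the window held 1 GC box each, with a GC content of 56.7% and 64.0%. Which start these cells use was not tested. The core of the FOXO motif, TGTTTAC on either strand, was in none of the 14 promoters of the 8 genes and in 3.42% of all promoters. TATAAA, on either strand, was in each of the 3 promoters of SGK1 and in 11.5% of all promoters. These counts are a description of the letters in these windows, and no binding was measured.

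AKT1 (Entrez gene 207; GRCh38 chr14:104769349-104795751) is the AKT isoform best known for growth and survival signaling. It stood at 167, 154 and 157 CPM in WT cells and at 187, 191 and 194 CPM in MLST8-KO cells. All MLST8-KO replicates were above all WT replicates. AKT1 rose from 159 ± 6.79 to 191 ± 3.59 CPM, 1.20-fold (log2 fold change 0.26, standard error 0.07, adjusted p = 0.0222, edgeR). The call rested on all but 2 of the libraries. Leaving out WT replicate 2 ended it (log2 fold change 0.23, adjusted p = 0.110, edgeR), as did leaving out MLST8-KO replicate 1 (0.28, adjusted p = 0.0671), replicate 2 (0.26, adjusted p = 0.0639) or replicate 3 (0.25, adjusted p = 0.0596).

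AKT2 (chr19:40230317-40285536), the isoform tied to insulin-driven glucose uptake, was not called. Its levels were 101, 96.5 and 103 CPM in WT and 91.9, 87.3 and 99.2 CPM in MLST8-KO cells. MLST8-KO replicate 3 lay among the WT values, so the groups overlapped. The means were 99.9 ± 3.19 and 92.8 ± 5.97 CPM (log2 fold change -0.11, standard error 0.08, adjusted p = 0.323, edgeR). In TPM, which is scaled by length and on which the median of all genes was higher in MLST8-KO cells by 0.092 (log2(TPM + 1)), the sign of AKT2 turned to 0.087, below that median. Per length, AKT1 was the more abundant of the pair in every library. The ratio of AKT1 to AKT2 in TPM was 2.43, 2.16 and 2.19 in WT and 2.68, 2.91 and 2.74 in MLST8-KO cells, without overlap. The mean log2 ratio was higher in MLST8-KO cells by 0.30 (p = 0.1, two-sided exact permutation test, the smallest p that 3 against 3 allows, adjusted p = 0.125 over 5 ratios).

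SGK1 (chr6:134169246-134318112) is itself transcribed in response to serum, glucocorticoids and osmotic stress. It stood at 101, 79.3 and 78.5 CPM in WT and at 102, 98.0 and 114 CPM in MLST8-KO cells. WT replicate 1 lay among the MLST8-KO replicates, while the other 2 WT replicates lay below all of them. SGK1 was at 86.4 ± 13.0 and 104.6 ± 8.13 CPM and was not called (log2 fold change 0.28, standard error 0.11, adjusted p = 0.0795, edgeR). The call turned on 1 library, and with WT replicate 1 left out SGK1 was called (0.41, adjusted p = 0.00458, edgeR). With upper quartile scaling SGK1 was just past the threshold (0.33, adjusted p = 0.0499, edgeR), and limma on log2(TPM + 1) called it as well (0.39, adjusted p = 0.0257).

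SGK3 (chr8:66667596-66862022), which carries a PX domain and sits on endosomes, had the highest fold change of the 9 genes and low counts. It had 28, 62.6 and 40.1 estimated counts in WT cells and 124, 136 and 84.5 in MLST8-KO cells. All MLST8-KO replicates exceeded all WT replicates. SGK3 rose from 3.03 ± 1.25 to 7.26 ± 1.64 CPM, 2.40-fold (log2 fold change 1.26, standard error 0.28, adjusted p = 0.0101, edgeR).

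The table also lists C8orf44-SGK3 (Entrez gene 100533105), a read-through gene whose transcripts run from the neighbouring C8orf44 into SGK3 and share its exons. C8orf44-SGK3 had 71, 36.5 and 89.4 counts in WT and 18.8, 17.2 and 18.0 in MLST8-KO cells, and it fell by 1.99 on the log2 scale (standard error 0.34, adjusted p = 0.00412, edgeR). Of the counts of both gene models, C8orf44-SGK3 received 71.7%, 36.8% and 69.0% in WT cells and 13.2%, 11.2% and 17.6% in MLST8-KO cells. Because the models share exons, many of these reads could be given to either, and the counts of both were not all whole. Summed, they had 99, 99.1 and 129.6 counts in WT and 142.9, 153.4 and 102.5 in MLST8-KO cells. The summed groups overlapped, at 7.59 ± 1.50 and 8.40 ± 1.62 CPM, and the sum was not called (log2 fold change 0.15, standard error 0.19, adjusted p = 0.562, edgeR). With the sum in place of SGK3, 3 of the 9 genes were called higher. The sum was added after the values were seen, and whether the change lies in the transcripts or in how reads were divided between the gene models was not tested.

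**Figure D3:**
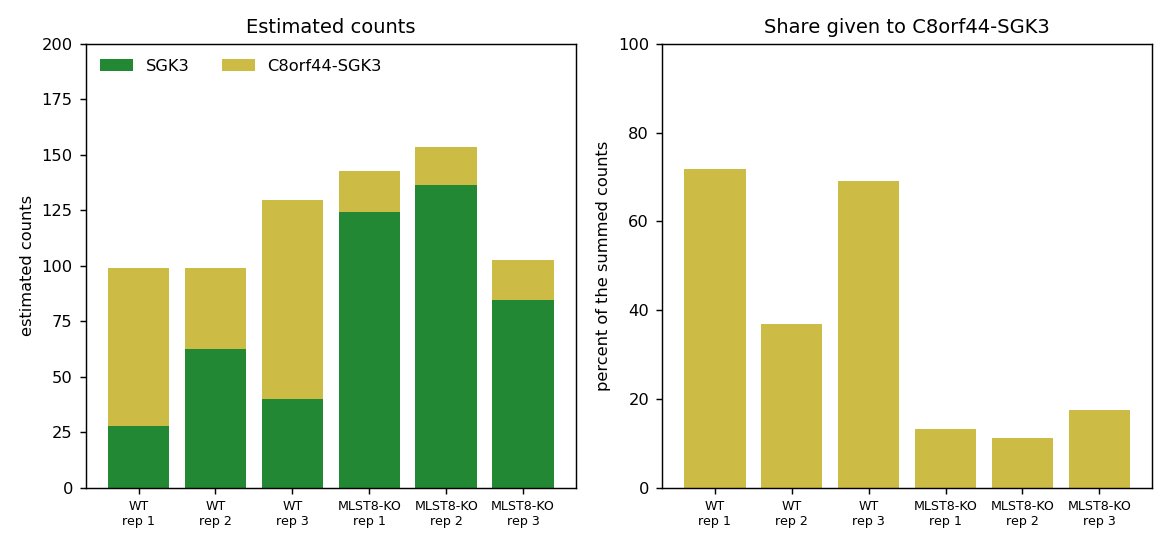
Left, estimated counts given to SGK3 (green) and to the read-through gene C8orf44-SGK3 (yellow), stacked, in each of the 6 libraries; right, the percent of their sum given to C8orf44-SGK3. The share is 36.8% to 71.7% in WT and 11.2% to 17.6% in MLST8-KO cells, while the stacked totals of the groups overlap.

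SGK1 made up nearly all of the SGK message per length, at 98.0% ± 0.982 of the summed TPM of SGK1, SGK2 and SGK3 in WT and 96.2% ± 1.08 in MLST8-KO cells. These shares leave out C8orf44-SGK3. With its TPM added to SGK3, the ratio of SGK1 to that sum was 29.6, 21.4 and 15.9 in WT. In MLST8-KO cells it was 19.9, 18.8 and 31.4, so the groups overlapped. The mean log2 ratio of SGK1 to SGK3 differed by -1.04 (p = 0.2, two-sided exact permutation test, adjusted p = 0.2 over 5 ratios). With the TPM of C8orf44-SGK3 added to SGK3 this difference was 0.075 (p = 0.9, two-sided exact permutation test), so its sign depended on the read-through gene.

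PRKCD (chr3:53156009-53192717) encodes PKC delta, a PKC activated by diacylglycerol without calcium. Its levels were 19.7, 20.1 and 14.8 CPM in WT and 28.8, 29.7 and 28.9 CPM in MLST8-KO cells. The MLST8-KO replicates lay close together and far above the WT replicates, of which replicate 3 was lowest. PRKCD rose from 18.2 ± 2.96 to 29.1 ± 0.494 CPM, 1.60-fold (log2 fold change 0.68, standard error 0.12, adjusted p = 0.00502, edgeR), and the call held without any 1 of the 6 libraries (0.55 to 0.75).

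PRKCE (chr2:45651345-46187990), which encodes PKC epsilon of the same calcium-independent class, was at 4.44, 4.41 and 5.84 CPM in WT and 7.10, 6.92 and 6.08 CPM in MLST8-KO cells. WT replicate 3 and MLST8-KO replicate 3 were close to each other, but the groups did not overlap. The means were 4.90 ± 0.819 and 6.70 ± 0.541 CPM, and PRKCE was not called (log2 fold change 0.45, standard error 0.17, adjusted p = 0.0658, edgeR). It passed the threshold without WT replicate 3 (0.60, adjusted p = 0.0323, edgeR) and with upper quartile scaling (0.51, adjusted p = 0.0442, edgeR).

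PRKCA (chr17:66302636-66810743), a conventional PKC that needs calcium as well as diacylglycerol, was the 1 gene of the 9 with every MLST8-KO replicate below every WT replicate. It was at 7.10, 9.02 and 8.08 CPM in WT and at 6.77, 6.67 and 6.28 CPM in MLST8-KO cells. The difference did not pass the test, at 8.07 ± 0.962 and 6.57 ± 0.263 CPM (log2 fold change -0.29, standard error 0.15, adjusted p = 0.153, edgeR).

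Within the PKC genes the message of these 3 was the smaller part. PRKCI and PRKCZ, the atypical PKC genes, and PRKCH gave most of the PKC message per length, with means of 80.0, 51.5 and 27.8 TPM in WT and 77.3, 51.7 and 29.6 TPM in MLST8-KO cells, and none of them was called. PRKCD took 7.84%, 7.89% and 5.71% of the summed TPM of 9 PKC genes in WT and 11.5%, 11.9% and 11.8% in MLST8-KO cells. The ratio of PRKCD to PRKCA was 6.94, 7.31 and 6.04 in WT and 13.3, 13.6 and 15.5 in MLST8-KO cells, a mean difference of 1.07 on the log2 scale. The ratio of PRKCE to PRKCA was 0.769, 0.917 and 1.28 in WT and 1.68, 1.64 and 1.61 in MLST8-KO cells, a mean difference of 0.76 on the log2 scale. Neither ratio overlapped between groups, and each had p = 0.1, the smallest possible in the two-sided exact permutation test (adjusted p = 0.125 over 5 ratios).

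PHLPP1 (chr18:62715450-62980433) and PHLPP2 (chr16:71637835-71724701) encode the phosphatases that act on the hydrophobic motif of AKT and PKC. PHLPP1 stood at 6.43, 6.68 and 6.28 CPM in WT and 9.68, 9.45 and 9.60 CPM in MLST8-KO cells. PHLPP1 had the smallest SD in CPM of the 9 genes in each group, and the groups did not overlap. Its counts were low, at 97, 97 and 87 in WT and 150, 153 and 150 in MLST8-KO cells. A spread over 3 replicates at such counts is itself imprecise. PHLPP1 rose from 6.46 ± 0.203 to 9.58 ± 0.115 CPM, 1.48-fold (log2 fold change 0.57, standard error 0.13, adjusted p = 0.0113, edgeR), and it stayed called without any 1 of the 6 libraries (0.54 to 0.59).

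PHLPP2 was at 21.6, 19.6 and 15.4 CPM in WT and 20.5, 17.1 and 16.8 CPM in MLST8-KO cells. The MLST8-KO values fell inside the WT range (18.9 ± 3.20 and 18.1 ± 2.01 CPM, log2 fold change -0.06, standard error 0.14, adjusted p = 0.768, edgeR). Its sign turned with WT replicate 1 left out (0.050). PHLPP1 made up 28.0%, 30.7% and 36.3% of the summed PHLPP TPM in WT and 39.6%, 42.7% and 43.9% in MLST8-KO cells. The mean log2 ratio of PHLPP1 to PHLPP2 was higher by 0.65 in MLST8-KO cells (p = 0.1, two-sided exact permutation test, adjusted p = 0.125 over 5 ratios).

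**Figure D4:**
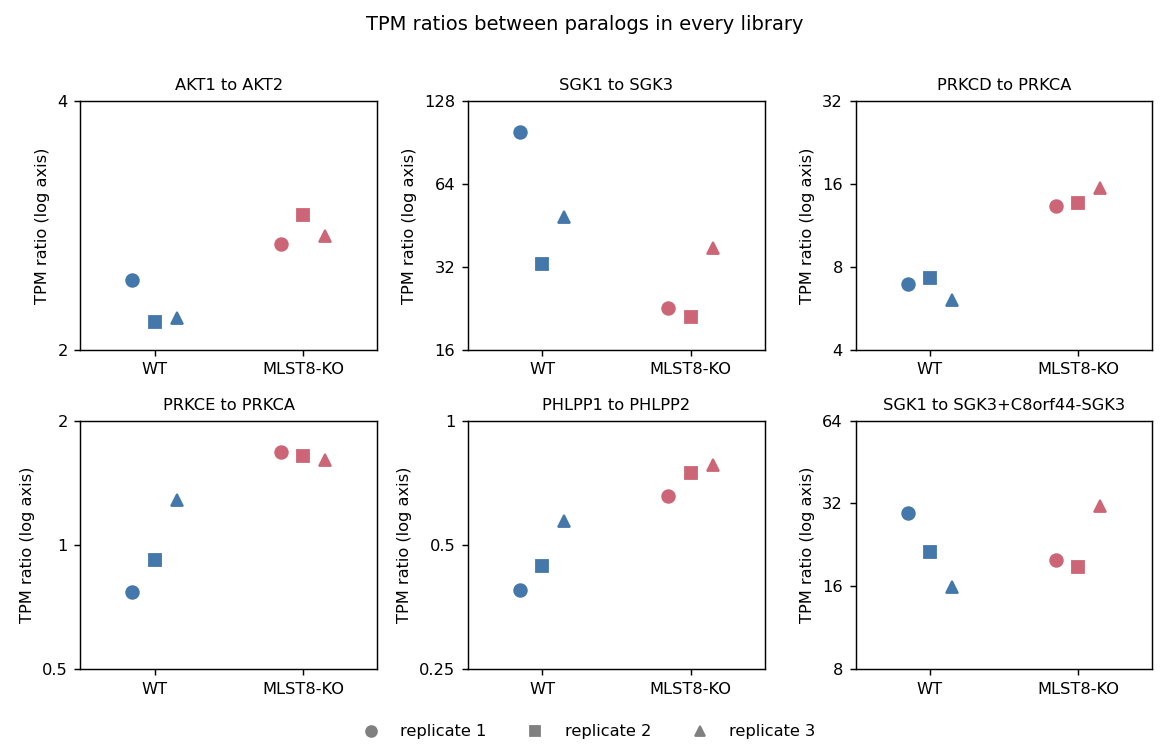
Ratio of TPM between paralogs in each of the 3 WT and 3 MLST8-KO replicates, on a log axis; the last panel adds the read-through gene to SGK3. The groups overlap in both panels for SGK1 and in none of the other 4.

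Per length, the 9 genes spanned a wide range in WT cells. AKT1 was highest at 104 ± 6.25 TPM, followed by SGK1 at 68.1 ± 11.1, AKT2 at 45.9 ± 0.855, PRKCD at 12.6 ± 2.38 and PHLPP2 at 4.11 ± 0.759 TPM, and none of these 5 overlapped its neighbour in the order. PHLPP1 at 1.88 ± 0.0473, PRKCA at 1.85 ± 0.193, PRKCE at 1.80 ± 0.281 and SGK3 at 1.33 ± 0.560 TPM overlapped one another. In MLST8-KO cells the upper 5 kept their order, at 136 ± 3.29, 88.6 ± 4.41, 48.8 ± 1.03, 21.7 ± 0.846 and 4.26 ± 0.524 TPM. Below them stood SGK3 at 3.46 ± 0.851, PHLPP1 at 3.08 ± 0.0902, PRKCE at 2.54 ± 0.318 and PRKCA at 1.54 ± 0.169 TPM, where SGK3 overlapped PHLPP2 above it and PHLPP1 and PRKCE below it, while PHLPP1, PRKCE and PRKCA did not overlap one another. The SGK3 values again exclude the reads given to C8orf44-SGK3.

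Leaving out MLST8-KO replicate 1, the library with the hepatocyte transcripts, left 3 of the 9 genes called higher, in a fit that called 7.49% of all genes higher. SGK3 then had a log2 fold change of 1.19 (adjusted p = 0.0439, edgeR), PRKCD of 0.69 (adjusted p = 0.0266, edgeR) and PHLPP1 of 0.56 (adjusted p = 0.0466, edgeR).

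**Figure D5:**
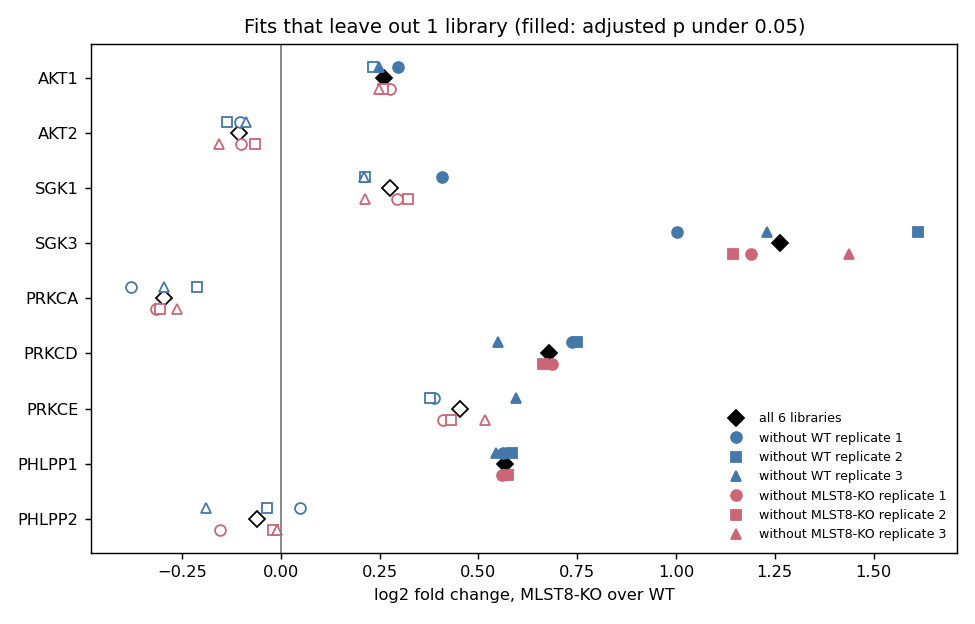
Log2 fold change of each of the 9 genes with all 6 libraries and with each library left out in turn; filled points passed the threshold. The values for SGK3 run from 1.002 to 1.61 and those for PHLPP1 from 0.54 to 0.59, while those for PHLPP2 cross 0, from -0.19 to 0.050.

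The 9 genes were set beside 96 other genes of the pathway in 6 lists, of which 88 were tested. Of these, 21 (23.9%) were called higher and 14 (15.9%) lower, against 16.3% and 15.7% over all genes tested, with a median log2 fold change of 0.10. The lower share was thus near that of all genes, and the list counts that follow are to be read against the same shares. The counts rose to 23 higher and 16 lower with WT replicate 1 left out (2692 and 2651 over all genes). Higher calls fell with any other library left out, as did those over all genes. Leaving out WT replicate 2 gave 11 higher genes (971 over all genes), and leaving out MLST8-KO replicate 2 gave 12 (1136 over all genes). With MLST8-KO replicate 1 left out, 10 were higher and 9 lower (979 and 850 over all genes).

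Among the paralogs and PDK1, 7 of 12 genes were tested, 2 were called higher and 0 lower, with a median of -0.04. PKN3, which encodes a PKC-related kinase, rose from 12.1 ± 1.79 to 19.3 ± 2.50 CPM (log2 fold change 0.66, adjusted p = 0.00911, edgeR). Of 20 other AGC kinases, 4 were called higher and 0 lower, with a median of 0.18. The largest rises were those of RPS6KA6 (0.59), which encodes RSK4, CDC42BPA (0.46), which encodes MRCK alpha, and RPS6KA4 (0.42), which encodes MSK2.

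Upstream, 6 of 15 mTORC2 and PI3K genes were called higher and 2 lower, with a median of 0.11. PRR5L, a protein that binds mTORC2, rose by 1.57 on the log2 scale, from 0.796 ± 0.348 to 2.39 ± 0.519 CPM (adjusted p = 0.00909, edgeR). PIK3R1 (0.78) and PIK3R3 (0.69), which encode regulatory subunits of PI3K, rose as well. PIK3CD, which encodes the catalytic subunit p110 delta, fell by 0.48 on the log2 scale, and the other lower gene was MLST8 itself.

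Genes listed as phosphatases and inhibitors that oppose the pathway split in direction. Of 15 tested genes (18 listed), 3 were called higher and 4 lower, with a median of 0.09. Whether each listed gene, the tribbles genes included, opposes AKT in these cells was not tested. FKBP5, a scaffold that brings PHLPP to AKT, rose by 0.95 on the log2 scale, from 5.72 ± 2.17 to 11.1 ± 1.24 CPM (adjusted p = 0.0169, edgeR). The tribbles pseudokinases moved in both directions, since TRIB2 rose (0.44) while TRIB3 and TRIB1 fell by 1.06 and 1.02. TRIB3 varied widely between WT replicates, at 354 ± 129 CPM against 169 ± 14.7 CPM in MLST8-KO cells. Of the PP2A genes, PPP2R1B, a scaffold subunit, rose (0.33), and PPP2CA, a catalytic subunit, fell by 0.45.

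Of 20 genes for proteins that AKT, SGK or PKC kinases phosphorylate, 5 were called higher and 3 lower, with a median of 0.09. The PKC substrate MARCKS rose by 1.04, from 32.1 ± 9.75 to 65.9 ± 4.08 CPM (adjusted p = 0.00404, edgeR), and TBC1D4 (0.72), an AKT substrate in glucose transport, and ADD3 (0.69), a cytoskeletal adducin, rose as well. GSK3B, an AKT substrate, fell by 0.88 on the log2 scale, from 236 ± 51.9 to 128 ± 10.8 CPM (adjusted p = 0.00357, edgeR). NDRG1, whose phosphorylation is used as a readout of SGK1, fell by 0.46, and EZR, which encodes ezrin, fell by 0.37.

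Genes listed as sharing glucocorticoid or osmotic inducers with SGK1 had the lowest median of the lists, -0.28, with 1 of 11 called higher and 5 lower. The list does not hold every such gene, and FKBP5, which rose by 0.95, was counted with the opposing genes and not here. TSC22D3, a glucocorticoid-induced leucine zipper, fell by 1.39 on the log2 scale (adjusted p = 0.00439, edgeR). It varied widely between WT replicates, at 180 ± 77.4 CPM against 68.8 ± 7.88 CPM in MLST8-KO cells. SLC6A6, the taurine transporter, fell by 1.03, and PER1, a clock gene, fell by 0.92, while KLF9, a transcription factor, rose (0.55). For PER1 the groups overlapped, with WT replicate 1 at 8.56 CPM and MLST8-KO replicate 3 at 8.58 CPM. SGK1 itself, with its log2 fold change of 0.28, was not called.

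For each called gene, the genes with the most similar profile over the 6 libraries were found among 11187 genes with a mean of at least 50 counts, as a description. The closest to AKT1 were NRM (Pearson r = 0.997) and UCKL1 (0.997), to PRKCD TMPO (0.998) and OIP5 (0.997), to PHLPP1 TUBGCP2 (0.997) and TBC1D10B (0.996), and to SGK3 CEP57 (0.990) and FOXP1 (0.988). All 6 points carry the difference between the groups, so high values are common. With r over 0.9 there were 1210 genes for AKT1, 1529 for PRKCD, 1002 for PHLPP1 and 152 for SGK3.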

How the data were processed

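RNA was measured in 3 WT and 3 MLST8-KO samples of HCC2814 cells, grouped by their labels. Reads that passed the authors' quality filters were mapped with HISAT (GRCh38.p12) and, for reference genes, with Bowtie2. The authors deposited estimated counts, not normalized, and FPKM and TPM per gene, scaled by length and depth (FPKM was not used here). The program that estimated the counts and its handling of strand and shared reads are not given in the sources used here, so reads of overlapping or antisense genes may be divided between genes. A deposited table of the authors' own DESeq2 comparison (fold changes with p- and q-values) was not used.

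Of the estimated counts, 12.4% were not whole, and all were rounded to whole numbers before testing. Groups were compared without pairing by the quasi-likelihood test of edgeR 4.0.16 under R 4.3.3 (TMM, filterByExpr by group, glmQLFit, glmQLFTest), Benjamini-Hochberg over 12951 genes. Standard errors were taken from the size of the log2 fold change over the root of the F statistic. Ratios of TPM between paralogs were compared by exact permutation. Alternatives were DESeq2 1.42.0, its size factors, upper quartile scaling, fits with no filter or with a minimum of 10 counts per sample, limma 3.58.1 on log2(TPM + 1) and log2(TPM + 0.1), a block for replicate number, and fits lacking 1 sample. Replicate pairs differed by more than sampling noise (chi-square per gene 6.98 to 26.5). In simulated counts of 12860 genes for this comparison, 100 genes were changed by 0.5 and 100 by 1 on the log2 scale. The fit recovered 45% and 89% of them in that order, and 10.1% of its calls were unchanged genes. The changed share was far below the 32.0% of genes called in the data, so these rates may not hold for the data.

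The 9 genes and the lists were chosen with earlier results of these data known. Named besides the 9 are MLST8, at most the 3 largest rises and 3 largest falls called in each list, and the 2 genes most correlated with each called gene (log2 of CPM + 0.5). C8orf44-SGK3, atypical PKC genes, PRKCH and the markers PTPRC, CD68, COL1A1 and NKX2-1 were named after their values were seen. Some items that this rule names are not reported here. Symbols turned into dates (25) were kept out of the lists. Gene coordinates are from GENCODE 29 on GRCh38.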

Additional observations from a re-analysis of the deposited data

How the results depend on the processing

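The 9 genes kept 4 higher and 0 lower calls with DESeq2, its size factors, no filter, a minimum of 10 counts per sample and the replicate block. Higher calls were 6 with upper quartile scaling, 5 with limma on either TPM scale, 3 to 5 without 1 library and 3 with SGK3 and C8orf44-SGK3 summed, and 0 were lower in each. AKT1 ranged from 0.23 to 0.30 without 1 library and lost its call in 4 of those 6 fits. SGK1 passed the threshold with upper quartile scaling (0.33, adjusted p = 0.0499, edgeR), limma on log2(TPM + 1) (0.39) and log2(TPM + 0.1) (0.39) and without WT replicate 1 (0.21 to 0.41 over the libraries). PRKCE passed with upper quartile scaling (0.51) and without WT replicate 3 (0.38 to 0.60). On log2(TPM + 1) and log2(TPM + 0.1), AKT2 turned to 0.087 and 0.089 and PHLPP2 to 0.048 and 0.060. PHLPP2 also turned without WT replicate 1 (-0.19 to 0.050 over the libraries). The summed SGK3 (0.15) was 0.059, 0.077 and 0.33 with WT replicates 1, 2 and 3 left out in turn and 0.085, 0.062 and 0.30 with MLST8-KO replicates 1, 2 and 3 left out, and was called in none of these fits. The difference of the SGK1 to SGK3 ratio turned to 0.075 with the sum. The sums were added after the data were seen. PRKCD, PHLPP1, SGK3 and PRKCA changed no call without 1 library. Pathway list genes called were 10 to 23 higher and 9 to 16 lower without 1 library. Fits without 1 library have fewer samples, and the cause of the other changes was not tested. Over all genes, calls were 2116 higher and 2030 lower, 2546 and 1559 with upper quartile scaling, and 2782 and 1134 with limma on log2(TPM + 1), 2764 and 1132 on log2(TPM + 0.1), whose medians were 0.092 and 0.10. They were 2692 and 2651 with WT replicate 1 left out, 971 and 1044 with WT replicate 2 left out, 979 and 850 with MLST8-KO replicate 1 left out, and 1136 and 1091 with MLST8-KO replicate 2 left out.

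Whether the replicate numbers pair the samples is not given in the sources used here. Deviations of same-numbered samples from their group means correlated at 0.105, 0.0565 and 0.140. All 6 samples correlated best with their own number, a hint of pairing from the data and not from the stated design. The main fit did not use it. With the replicate block, calls over all genes were 2261 higher and 2157 lower and the 9 genes kept their calls (AKT1 0.26, adjusted p = 0.0291, edgeR). Genes with few counts, SGK3 above all, are measured least precisely at this depth, and 3 samples a group leave the exact test no p under 0.1.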
